A study of Homo sapiens with 24 samples.

Results

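The translation initiation factors were the genes whose symbol begins with EIF1 to EIF6, with the 4E-binding proteins kept and the eIF2 kinases, EIF5A, EIF5A2 and pseudogenes left out. The rule found 49 such genes with a probe on the array, and 45 of them were tested among 12109 genes in all. Expression was measured with Illumina HT-12 bead arrays in HCC1954 and JIMT1, breast cancer cell lines that carry a mutant PIK3CA. Each line was treated for 4 hr with BYL719 at 1 μM plus GSK2334470 at 1 μM (the combination), BYL719 alone, GSK2334470 alone, or DMSO as the vehicle, with 3 arrays labelled as biological replicates in each of the 8 groups, 24 arrays in all. BYL719 inhibits the PI3K alpha isoform and GSK2334470 inhibits the kinase PDK1. Both cell lines were measured as grown cultures, so each result holds for these lines only, and fewer cells and less RNA per cell cannot be told apart from array intensities that were scaled to a common distribution.

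Initiation factors bring the small ribosomal subunit, the initiator tRNA and the mRNA together and then release the complex for elongation. eIF2 carries the initiator tRNA, eIF2B reloads eIF2 with GTP, eIF3 holds the pre-initiation complex together, and eIF4F binds the mRNA cap and unwinds the leader. mTORC1, which lies downstream of PI3K, phosphorylates the 4E-binding proteins and thereby releases the cap-binding protein eIF4E, and this control acts on proteins that the arrays do not measure. Only mRNA levels are reported here.

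Levels are background-corrected, quantile-normalized log2 intensities, and every fold change is given on that log2 scale. A gene was called when its limma p-value, adjusted by the Benjamini-Hochberg method over all 12109 genes, was under 0.05. Array medians of the raw intensity ran between 48.5 and 81.9, an array detected 41% to 45.2% of its probes, and pairs of arrays within a group had r between 0.9884 and 0.9936. HCC1954 DMSO replicates 2 and 3 lay farther from their group than the other arrays did, with a mean absolute deviation over the factors of 0.136 and 0.121, against 0.0607 to 0.103 on the remaining arrays. All 8 epithelial markers, among them EPCAM and ERBB2, were detected on all 24 arrays, and the leukocyte markers PTPRC and CD3E were detected on none. Of the endothelial markers, PECAM1 was detected on 12 arrays of each line, CDH5 on 12 HCC1954 and 9 JIMT1 arrays and VWF on 12 HCC1954 and 0 JIMT1 arrays. COL1A1, a stromal marker, was detected on 11 HCC1954 and 12 JIMT1 arrays and COL1A2 on 5 and 6, while COL3A1, DCN and LUM were detected on 0 to 3 arrays of a line. The monocyte marker CD14 was detected on 11 HCC1954 and 12 JIMT1 arrays. Upon the combination CD14 fell by 0.94 in HCC1954, and 4 of the 8 epithelial markers (CDH1, KRT7, ERBB2 and GATA3) rose in JIMT1 by 0.27 to 0.55. The part of these shifts in the results was not tested.

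Of the members not tested, EIF4E1B was detected on 5 of 24 arrays, EIF5AL1, a near copy of EIF5A, on 3 arrays and EIF3J-DT, a noncoding RNA beside EIF3J, on 6 arrays, and none reached 3 detected arrays in any group. EIF1AY lies on the Y chromosome, was counted and is not described. EIF4G3 had no probe in the table used. The probe that stood for each of the 45 tested genes, its brightest, was detected on all 24 arrays. Second probes were not always detected, and that of EIF6 was detected on 13 arrays. EIF3C and EIF3CL are near-identical copies whose signals may not be separable, although their probes did not move alike. In JIMT1 the mean EIF3CL level was 7.12 under the combination and 7.69 under DMSO, and that of EIF3C was 6.7 and 6.63. The EIF3CL change was not called in the main fit but was called in a fit on JIMT1 alone (−0.57, limma, adjusted p = 0.023).

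The data were first asked which factors moved upon the combination in both lines. In the main fit EIF2S1 and EIF3J fell in HCC1954 and in JIMT1, and no factor rose in both. EIF2S1 encodes the alpha subunit of eIF2 that stress kinases phosphorylate, and EIF3J is a loosely bound eIF3 subunit. The RefSeq promoters of these 2 genes are shown with that of EIF4E, the cap-binding protein, which had the lowest fold change of the called factors in JIMT1. Each is the 250 bases before the annotated start on GRCh38.p14, 5′ to 3′ in the direction of the gene, with every CACGTG (E-box), GTAAACA (forkhead), CCGGAAG (ETS) and GGGCGG (GC box) on either strand in capitals. EIF2S1 lies at chr14:67360078-67360327 on the plus strand, EIF3J at chr15:44536897-44537146 on the plus strand and EIF4E at chr4:98929134-98929383 on the minus strand.
EIF2S1: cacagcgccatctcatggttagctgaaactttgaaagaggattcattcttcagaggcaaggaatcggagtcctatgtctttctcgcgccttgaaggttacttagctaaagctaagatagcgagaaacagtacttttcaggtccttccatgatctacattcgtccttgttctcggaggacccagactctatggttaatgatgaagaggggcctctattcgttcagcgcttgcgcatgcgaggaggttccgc
EIF3J: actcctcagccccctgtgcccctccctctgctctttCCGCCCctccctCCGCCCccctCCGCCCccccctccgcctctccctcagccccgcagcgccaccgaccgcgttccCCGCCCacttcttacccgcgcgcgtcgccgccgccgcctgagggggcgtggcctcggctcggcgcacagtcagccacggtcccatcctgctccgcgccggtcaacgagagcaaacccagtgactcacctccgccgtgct
EIF4E: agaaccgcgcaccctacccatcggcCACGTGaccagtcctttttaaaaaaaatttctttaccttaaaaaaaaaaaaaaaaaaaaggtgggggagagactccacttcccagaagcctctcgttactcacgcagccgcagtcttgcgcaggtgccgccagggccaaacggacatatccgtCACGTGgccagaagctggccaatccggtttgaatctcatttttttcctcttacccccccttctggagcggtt
The EIF4E window held 2 E-boxes, the EIF3J window held 4 GC boxes, all on the opposite strand, and the EIF2S1 window held none of the 4 motifs. No capitals in these windows belong to overlapping motifs. A promoter was found for 37 of the 45 tested factors. An E-box stood in 10 of these 37 windows (27%), against 6.49% of all 27305 promoters in the table, and a GC box in 26 (70.3%), against 42.3%. The ETS motif stood in 6 windows (16.2%), against 8.82% of all, and the forkhead motif in 1 window (2.7%), that of EIF3D, against 2.98% of all. The 27305 promoters include those of genes not tested on the arrays, and shares over the tested genes alone were not counted. A match describes letters only.

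EIF2S1 fell in both lines, and no array left out ended the call in either. In HCC1954 its level was 8.87, 8.87 and 8.88 under the combination, 9.15, 9.05 and 8.84 under BYL719, 9.27, 9.03 and 9.12 under GSK2334470, and 9.45, 9.31 and 9.37 under DMSO. All 3 combination arrays lay below all 3 DMSO arrays, and the fold change was −0.50 ± 0.11 on the log2 scale (SE, n = 3 arrays each; limma, adjusted p = 0.0021). In JIMT1 its level was 8.91, 8.96 and 9.01 under the combination, 9.08, 9.16 and 9.25 under BYL719, 9.27, 9.27 and 9.26 under GSK2334470, and 9.6, 9.2 and 9.69 under DMSO. Again every combination array lay below every DMSO array, and the fold change was −0.54 ± 0.11 (SE; limma, adjusted p = 0.00092). The difference between the lines in this change was 0.03, with a 95% confidence interval of −0.28 to 0.34.

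EIF3J fell by a similar amount. Its HCC1954 level was 9.29, 9.45 and 9.38 under the combination, 9.37, 9.37 and 9.53 under BYL719, 9.56, 9.91 and 9.76 under GSK2334470, and 9.79, 10.05 and 9.6 under DMSO. The combination arrays all lay below the DMSO arrays, at −0.44 ± 0.12 (SE; limma, adjusted p = 0.015). The call was lost without DMSO replicate 2 (−0.32, adjusted p = 0.088) and without combination replicate 1 (−0.40, adjusted p = 0.061). Its JIMT1 level was 9.7, 9.79 and 9.8 under the combination, 9.73, 9.95 and 10.07 under BYL719, 10.14, 10.1 and 9.97 under GSK2334470, and 9.97, 10.3 and 10.23 under DMSO. The JIMT1 fold change was −0.41 ± 0.12 (SE; limma, adjusted p = 0.018), with no overlap between the combination and DMSO arrays. That call was lost without DMSO replicate 2 (−0.34, adjusted p = 0.086), DMSO replicate 3 (−0.37, adjusted p = 0.065) or combination replicate 1 (−0.38, adjusted p = 0.062).

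Upon the combination in HCC1954, 3 of the 45 factors rose, against 6.96% of all genes, and 4 fell, against 8.3% of all genes. These are 15.6% of the factors, against 15.3% of all genes, and the median fold change was −0.08 for the factors and −0.00 for all genes. In JIMT1, 2 factors rose, against 12.5% of all genes, and 6 fell, against 8.84% of all genes. Called factors were thus 17.8% of the 45, against 21.3% of all genes, and both medians were 0.02. The share of factors called was near that of all genes in both lines. In neither line were 32 of the factors called.

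**Figure D1:**
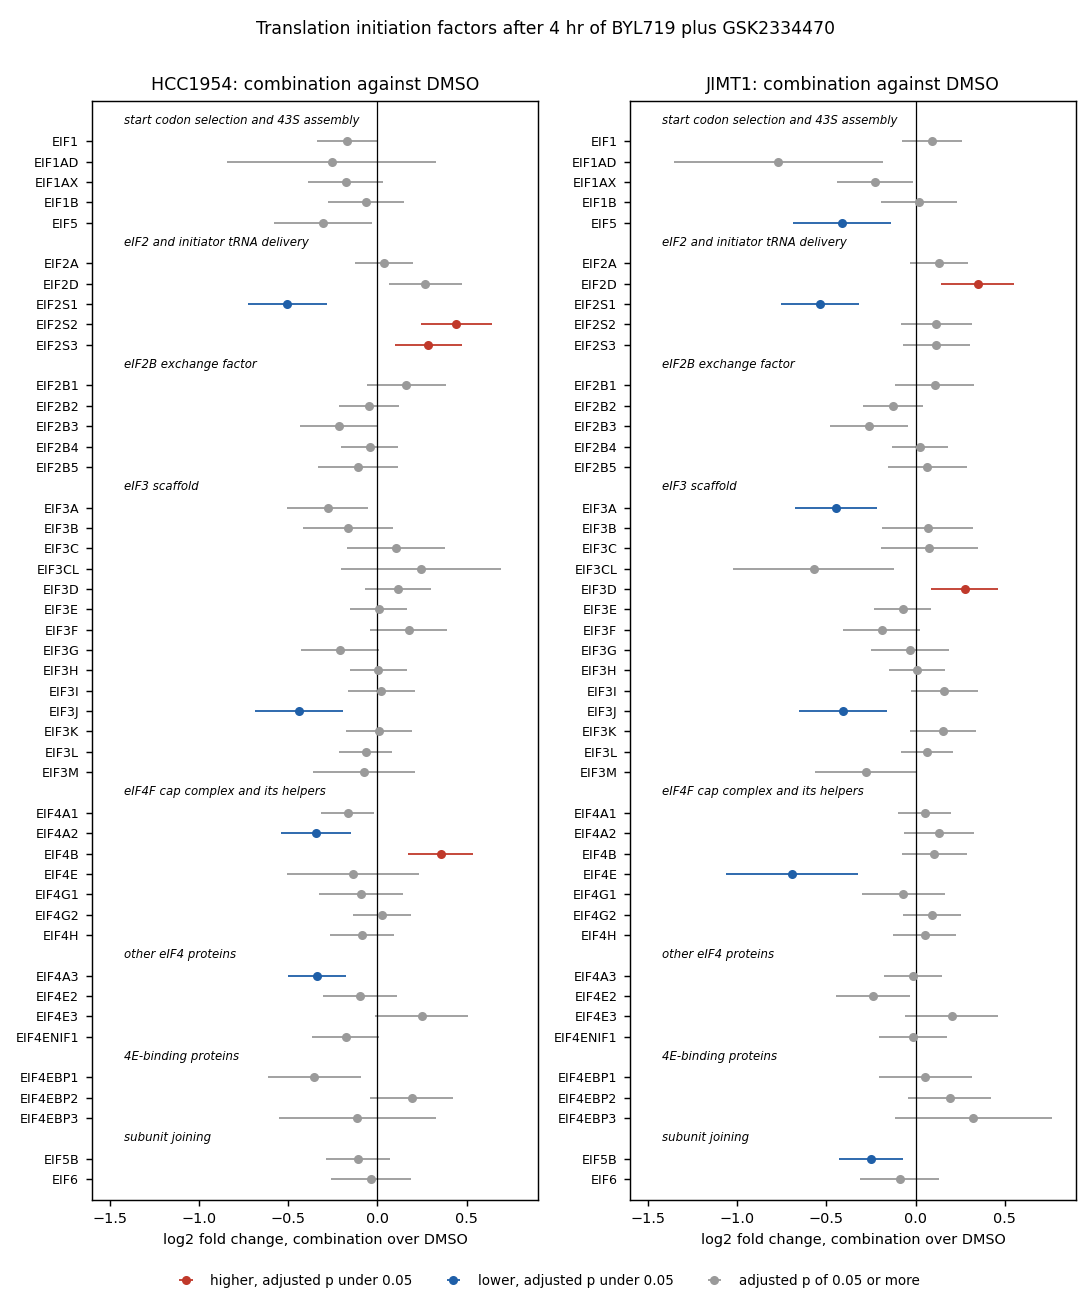
Log2 fold change of the 45 tested initiation factors upon the combination over DMSO, grouped by role, in HCC1954 (left) and JIMT1 (right). Points are the fitted values, lines their 95% confidence intervals, red and blue the factors called higher and lower (limma, adjusted p under 0.05). EIF2S1 and EIF3J are blue in both panels, and the median over the 45 factors is −0.08 in HCC1954 and 0.02 in JIMT1.

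The 3 subunits of eIF2 moved in opposite directions in HCC1954. EIF2S2, the beta subunit, had levels of 6.52, 6.54 and 6.75 under the combination, 6.19, 6.22 and 6.49 under BYL719, 6.43, 6.46 and 6.47 under GSK2334470, and 6.07, 6.21 and 6.2 under DMSO. It rose by 0.44 ± 0.10 (SE; limma, adjusted p = 0.0028), with every combination array above every DMSO array. EIF2S3, the GTP-binding gamma subunit, had levels of 12.32, 12.09 and 12.36 under the combination, 12.1, 11.94 and 12.06 under BYL719, 12.11, 12.14 and 12.4 under GSK2334470, and 11.89, 12.07 and 11.96 under DMSO. Its rise was 0.28 ± 0.09 (SE; limma, adjusted p = 0.037), with every combination array above every DMSO array. That call was lost without DMSO replicate 1 or 3 or combination replicate 1 or 3, with values of 0.23 to 0.28 and adjusted p from 0.086 to 0.15, and also with no detection filter (adjusted p = 0.064) and in a fit on HCC1954 alone (adjusted p = 0.11). EIF2S1 was lower and its partner subunits were higher in these arrays. The EIF2S2 probe, though detected on every array, was dim in HCC1954. Its raw intensity before normalization was 97.7 to 118 under the combination and 89 to 155 under DMSO. With a larger offset in the background correction its rise was 0.31 (limma, adjusted p = 0.012).

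In JIMT1 the beta and gamma subunits were not called. EIF2S2 had levels of 9.39, 9.17 and 9.25 under the combination, 9.12, 9.12 and 9.15 under BYL719, 9.16, 9.23 and 9.15 under GSK2334470, and 8.97, 9.25 and 9.25 under DMSO (0.11, limma adjusted p = 0.43). EIF2S3 had levels of 12.4, 12.44 and 12.35 under the combination, 12.27, 12.36 and 12.3 under BYL719, 12.4, 12.5 and 12.47 under GSK2334470, and 12.4, 12.24 and 12.21 under DMSO (0.12, limma adjusted p = 0.4). The arrays of the combination and DMSO overlapped for both genes. The line difference in the combination effect was not called for any eIF2 subunit.

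EIF2D, which delivers initiator tRNA without GTP, rose in JIMT1. Its JIMT1 level was 9.63, 9.81 and 9.62 under the combination, 9.35, 9.28 and 9.49 under BYL719, 9.31, 9.41 and 9.5 under GSK2334470, and 9.28, 9.37 and 9.38 under DMSO. The change was 0.35 ± 0.10 (SE; limma, adjusted p = 0.015), with the combination arrays above those of the other 3 treatments. It was lost without DMSO replicate 1 (0.32, adjusted p = 0.06) or combination replicate 2 (0.28, adjusted p = 0.08). In HCC1954 EIF2D had levels of 10.04, 9.87 and 9.81 under the combination, 9.73, 9.78 and 9.77 under BYL719, 9.69, 9.66 and 9.57 under GSK2334470, and 9.69, 9.39 and 9.83 under DMSO. That difference was 0.27 (limma, adjusted p = 0.075), and it was called without HCC1954 DMSO replicate 3 (0.36, adjusted p = 0.024). EIF2A, an eIF2-independent tRNA carrier, was called in neither line (0.04 in HCC1954 and 0.13 in JIMT1).

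Among the cap complex and its helpers, EIF4A2, an RNA helicase paralogous to EIF4A1, fell in HCC1954. Its level there was 12.82, 12.95 and 12.94 under the combination, 12.76, 13.07 and 13.01 under BYL719, 13.04, 13.03 and 13.05 under GSK2334470, and 13.18, 13.48 and 13.09 under DMSO. The fold change was −0.35 ± 0.09 (SE; limma, adjusted p = 0.015), all combination arrays being below the DMSO arrays. In JIMT1 the level was 13.92, 14.12 and 14.07 under the combination, 13.87, 13.8 and 13.8 under BYL719, 13.92, 13.97 and 14.01 under GSK2334470, and 13.87, 13.92 and 13.94 under DMSO (0.13, adjusted p = 0.36). The line difference itself, HCC1954 minus JIMT1, was −0.47 ± 0.13 (SE; limma, adjusted p = 0.046), the 1 factor called, against 4.48% of all genes. Both calls were lost without HCC1954 DMSO replicate 2, which had the highest EIF4A2 level of its group. The HCC1954 change was then −0.23 (adjusted p = 0.095) and the line difference −0.36 (adjusted p = 0.096). The HCC1954 call was also lost without combination replicate 1 (−0.31, adjusted p = 0.069), under median scaling (−0.31, adjusted p = 0.052) and in a fit on HCC1954 alone (adjusted p = 0.071). Median scaling (−0.34, adjusted p = 0.23) and no detection filter (adjusted p = 0.079) ended the line difference, and the line difference held in 2 of 12 fits with an array left out, with values of −0.51 to −0.36 and adjusted p from 0.054 to 0.11 where it was lost.

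EIF4B, a cofactor of the helicase and a substrate of S6 kinase, rose in HCC1954. Its level was 11.41, 11.24 and 11.34 under the combination, 11.1, 11.32 and 11.25 under BYL719, 11.31, 11.11 and 11.4 under GSK2334470, and 10.93, 11 and 11 under DMSO. Every array of the 3 drug treatments lay above every DMSO array, and the combination change was 0.35 ± 0.09 (SE; limma, adjusted p = 0.008). The JIMT1 levels were 11.39, 11.47 and 11.55 under the combination, 11.51, 11.42 and 11.4 under BYL719, 11.57, 11.3 and 11.47 under GSK2334470, and 11.33, 11.37 and 11.41 under DMSO (0.10, adjusted p = 0.44). There the groups overlapped.

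EIF4E had the lowest fold change among the called factors in JIMT1. Its level was 7.56, 7.37 and 6.92 under the combination, 7.79, 7.35 and 7.32 under BYL719, 7.83, 7.79 and 7.45 under GSK2334470, and 7.86, 8.33 and 7.74 under DMSO. All combination arrays were below all DMSO arrays, at −0.69 ± 0.18 (SE; limma, adjusted p = 0.0077), with combination replicate 3 the lowest and DMSO replicate 2 the highest. The call was lost without that combination array (−0.51, adjusted p = 0.06) or that DMSO array (−0.52, adjusted p = 0.058). A dimmer EIF4E probe, detected on 20 of 24 arrays, gave −0.05 for the same comparison, and averaging the EIF4E probes ended the call (−0.37, adjusted p = 0.13). EIF1AD read lower still, at −0.77, but was not called with all arrays in the main fit. Its combination arrays were scattered, at 7.32, 6.83 and 5.53. It was called without combination replicate 1 (−1.15, adjusted p = 0.0039) and with the replicate block (adjusted p = 0.039). No background correction (−0.59, limma, adjusted p = 0.044) and offset 50 (−0.56, limma, adjusted p = 0.033) also called it, at smaller values. In HCC1954 EIF4E had levels of 7.88, 8.09 and 7.85 under the combination, 7.87, 7.89 and 7.83 under BYL719, 7.93, 7.91 and 8.32 under GSK2334470, and 7.87, 8.25 and 8.12 under DMSO (−0.14, adjusted p = 0.68).

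The other scaffold and helicase genes grouped with the cap complex were not called upon the combination on the probe used. EIF4G1, the scaffold, had HCC1954 levels of 11.02, 10.88 and 10.85 under the combination, 10.93, 11.02 and 11.08 under BYL719, 10.9, 10.97 and 11.1 under GSK2334470, and 10.95, 10.78 and 11.3 under DMSO. Its JIMT1 levels were 11.36, 11.6 and 11.45 under the combination, 11.37, 11.38 and 11.49 under BYL719, 11.36, 11.25 and 11.59 under GSK2334470, and 11.5, 11.53 and 11.59 under DMSO. The combination changes of −0.09 and −0.07 in HCC1954 and JIMT1 lay within the spread of the arrays. EIF4G2, which supports cap-independent initiation, had HCC1954 levels of 13.99, 14.06 and 13.92 under the combination, 13.8, 13.99 and 14 under BYL719, 13.96, 14.08 and 14.17 under GSK2334470, and 13.93, 13.96 and 14 under DMSO. Its JIMT1 levels were 13.32, 13.35 and 13.24 under the combination, 13.18, 13.35 and 13.21 under BYL719, 13.27, 13.22 and 13.17 under GSK2334470, and 13.2, 13.16 and 13.27 under DMSO. Its combination changes were 0.03 in HCC1954 and 0.09 in JIMT1.

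**Figure D2:**
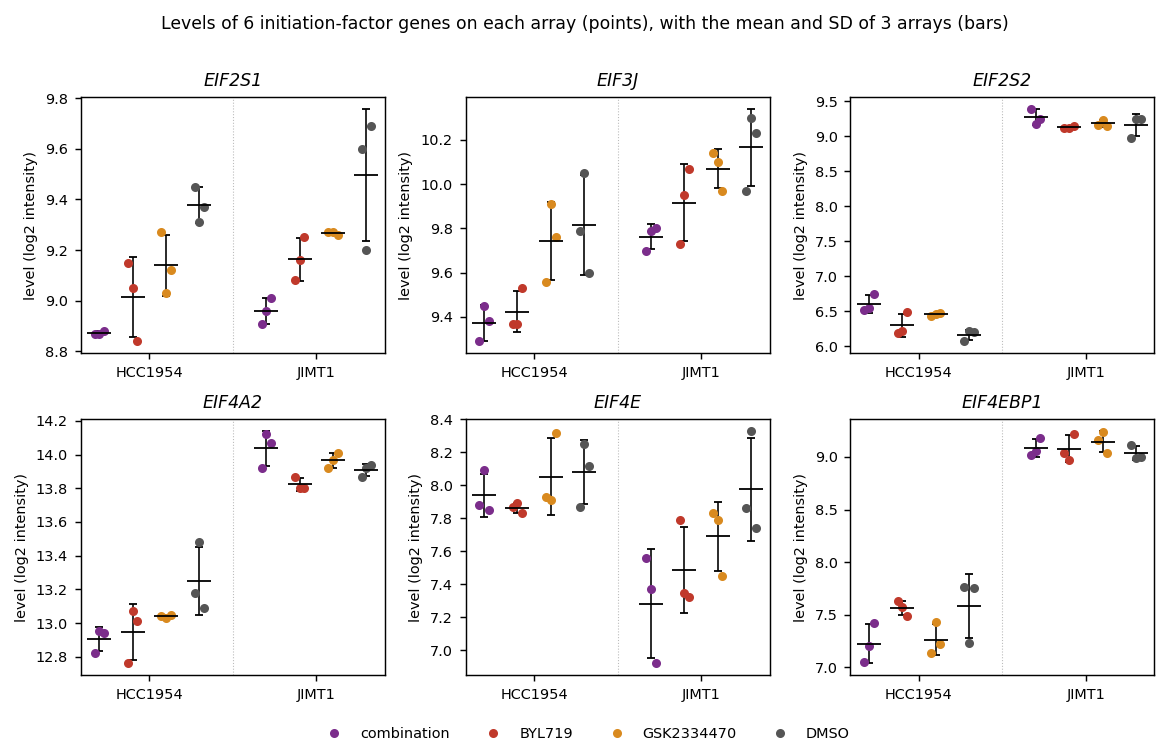
Level of 6 factors on every array, as log2 intensity, by cell line and treatment; colors give the treatment, bars the mean and SD of 3 arrays. The combination arrays of EIF2S1 and EIF3J lie below the DMSO arrays in both lines, and EIF4A2 does so in HCC1954, where its DMSO replicate 2 is at 13.48.

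EIF4A1, the main helicase of the complex, gave different answers on its 2 probes. On the brighter probe, which represented the gene, HCC1954 levels were 14.06, 14.1 and 14 under the combination, 14.1, 14.24 and 14.14 under BYL719, 14.21, 14.26 and 14.23 under GSK2334470, and 14.2, 14.31 and 14.15 under DMSO. The combination arrays lay below the DMSO arrays, but the change of −0.17 was not called (limma, adjusted p = 0.13). On the dimmer probe the HCC1954 levels were 10.57, 10.71 and 10.62 under the combination, 11.02, 10.7 and 10.69 under BYL719, 11, 11.03 and 11 under GSK2334470, and 11.37, 11.31 and 11.51 under DMSO. Here no array of the 3 drug treatments reached any DMSO array, and the combination change was −0.77 ± 0.10 (SE; limma over 21256 probes, adjusted p = 2.5e-05).

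JIMT1 showed the same contrast between the 2 EIF4A1 probes. The brighter probe read 14.07, 14.1 and 14.05 under the combination, 13.86, 13.92 and 13.92 under BYL719, 13.94, 14.02 and 13.98 under GSK2334470, and 13.93, 13.99 and 14.16 under DMSO, a combination change of 0.05 (adjusted p = 0.67). The dimmer probe read 10.86, 10.95 and 11.15 under the combination, 11.12, 11.1 and 11.23 under BYL719, 11.47, 11.26 and 11.4 under GSK2334470, and 11.49, 11.55 and 11.63 under DMSO, a change of −0.57 ± 0.10 (SE; limma over 21256 probes, adjusted p = 0.00038). BYL719 alone lowered the dimmer probe too. It fell by 0.60 in HCC1954 (limma, adjusted p = 0.0021), and in JIMT1 it fell by 0.41 (limma, adjusted p = 0.013). Upon GSK2334470 alone the HCC1954 value was −0.39 (adjusted p = 0.15) and the JIMT1 value −0.18 (adjusted p = 0.54). Which part of the gene each probe reads is not given in the table used, and the single-probe test was added after the data had been seen. Averaging the probes, an alternative run for all genes, called EIF4A1 lower upon the combination in HCC1954 (−0.47, limma, adjusted p = 4.9e-05) and JIMT1 (−0.26, adjusted p = 0.0078). The averaged value was also called lower upon BYL719 in HCC1954 (−0.33, limma, adjusted p = 0.0066) and JIMT1 (−0.27, adjusted p = 0.012). In the single-probe test 10.5% of all probes were called upon the combination in HCC1954 and 16.6% in JIMT1, and EIF4A1 was the only factor with a second probe called in any of the 6 comparisons with DMSO.

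**Figure D3:**
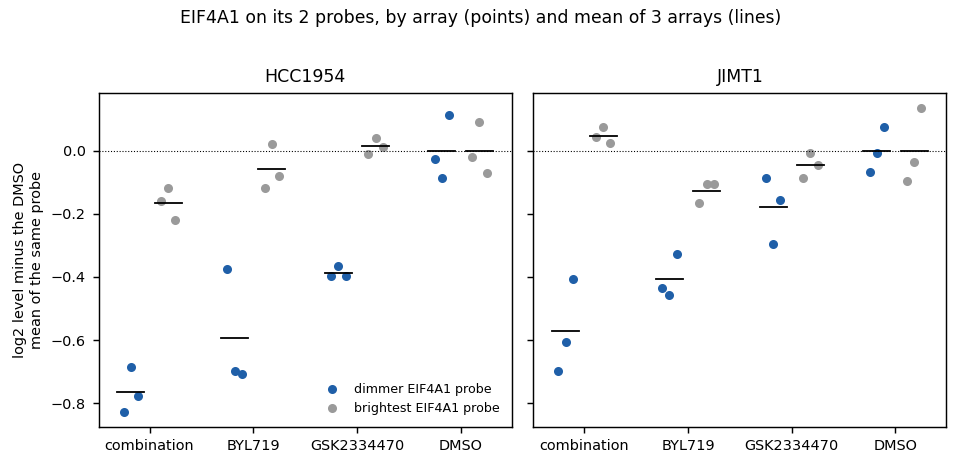
EIF4A1 level on each array minus the DMSO mean of the same probe, in log2 units, for the dimmer probe (blue) and the brightest probe (gray) in HCC1954 (left) and JIMT1 (right). Lines are means of 3 arrays. The dimmer probe lies at −0.77 in HCC1954 and −0.57 in JIMT1 under the combination, and the brightest probe at −0.17 and 0.05.

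Outside the cap complex, EIF4A3, a helicase paralog of the exon junction complex, fell in HCC1954. Its level was 12.53, 12.59 and 12.58 under the combination, 12.78, 12.64 and 12.58 under BYL719, 12.79, 12.74 and 12.76 under GSK2334470, and 12.89, 12.96 and 12.86 under DMSO. The change was −0.34 ± 0.08 (SE; limma, adjusted p = 0.0049), and all 9 drug-treated arrays lay below the DMSO arrays. In JIMT1 the level was 12.7, 12.69 and 12.78 under the combination, 12.58, 12.53 and 12.81 under BYL719, 12.73, 12.57 and 12.72 under GSK2334470, and 12.71, 12.77 and 12.73 under DMSO (−0.02, adjusted p = 0.92). The difference between the lines was −0.32 (adjusted p = 0.11).

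None of the 3 genes for 4E-binding proteins was called upon any treatment with all arrays in the fit. EIF4EBP1 had HCC1954 levels of 7.05, 7.2 and 7.42 under the combination, 7.63, 7.57 and 7.49 under BYL719, 7.14, 7.43 and 7.22 under GSK2334470, and 7.76, 7.23 and 7.75 under DMSO. The combination difference was −0.35 (limma, adjusted p = 0.062), and DMSO replicate 2 lay within the combination arrays. The difference was called without that array (−0.53, adjusted p = 0.003) and without combination replicate 3 (−0.45, adjusted p = 0.032). Its JIMT1 levels were 9.02, 9.06 and 9.18 under the combination, 9.04, 8.97 and 9.22 under BYL719, 9.16, 9.24 and 9.04 under GSK2334470, and 9.11, 8.99 and 9 under DMSO (0.05, adjusted p = 0.81).

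EIF4EBP2 had HCC1954 levels of 8.69, 8.31 and 8.38 under the combination, 8.45, 8.59 and 8.52 under BYL719, 8.43, 8.59 and 8.6 under GSK2334470, and 8.21, 8.49 and 8.1 under DMSO. In JIMT1 it read 9.21, 8.99 and 9.24 under the combination, 9.25, 8.99 and 9.09 under BYL719, 9.16, 9.02 and 9.05 under GSK2334470, and 8.96, 8.95 and 8.96 under DMSO. The combination differences of 0.19 in both lines were not called (limma, adjusted p = 0.28 for HCC1954 cells and 0.24 for JIMT1 cells), although all 9 drug-treated JIMT1 arrays lay above the DMSO arrays. EIF4EBP3 was dimmer and more scattered, with HCC1954 levels of 6.11, 6.07 and 5.34 under the combination, 5.96, 6.22 and 5.94 under BYL719, 5.98, 5.81 and 5.76 under GSK2334470, and 5.83, 5.73 and 6.31 under DMSO. Its JIMT1 levels were 6.87, 6.91 and 6.74 under the combination, 7.07, 6.45 and 6.44 under BYL719, 6.82, 6.68 and 7.05 under GSK2334470, and 6.93, 6.29 and 6.33 under DMSO. The 95% confidence interval of its combination change was −0.55 to 0.33 for HCC1954, and the JIMT1 interval was −0.12 to 0.76, so that small changes of either sign could not be resolved.

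In eIF3, the scaffold of the pre-initiation complex, 14 genes were tested, EIF3C and EIF3CL both counted. Of these, 1 fell in HCC1954, where 8.3% of all genes fell. In JIMT1, 1 subunit rose and 2 fell, where 12.5% of all genes rose and 8.84% fell. EIF3A, its largest subunit, fell in JIMT1, with levels of 10.83, 10.88 and 10.53 under the combination, 10.94, 11.04 and 10.92 under BYL719, 11.22, 11.01 and 11.09 under GSK2334470, and 11.2, 11.21 and 11.16 under DMSO (−0.44 ± 0.11, SE; limma, adjusted p = 0.0061). In HCC1954 EIF3A read 10.72, 10.58 and 10.8 under the combination, 10.92, 10.46 and 10.55 under BYL719, 10.79, 10.63 and 10.85 under GSK2334470, and 10.95, 11.04 and 10.96 under DMSO. All 9 drug-treated HCC1954 arrays were below the DMSO arrays, at −0.28 for the combination (adjusted p = 0.095). EIF3D, a cap-binding subunit, rose in JIMT1, with levels of 12.77, 12.82 and 12.69 under the combination, 12.46, 12.4 and 12.46 under BYL719, 12.41, 12.39 and 12.62 under GSK2334470, and 12.4, 12.53 and 12.52 under DMSO. Its combination arrays lay above all other JIMT1 arrays, by 0.27 ± 0.09 over DMSO (SE, limma adjusted p = 0.033). The call was lost without any 1 of the DMSO arrays or of combination replicates 1 and 2 (0.23 to 0.30, adjusted p from 0.051 to 0.13). Median scaling (0.22, limma, adjusted p = 0.11) and no detection filter (limma, adjusted p = 0.057) also ended that call. In HCC1954 EIF3D read 11.92, 12.03 and 11.86 under the combination, 11.82, 11.79 and 11.92 under BYL719, 11.91, 11.94 and 12 under GSK2334470, and 11.8, 11.65 and 12.02 under DMSO (0.11, adjusted p = 0.45).

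Both EIF5 and EIF5B, which act late in initiation, fell in JIMT1. EIF5, which triggers GTP hydrolysis on eIF2, had levels of 9.36, 9.23 and 8.99 under the combination, 9.25, 9.43 and 9.41 under BYL719, 9.45, 9.4 and 9.38 under GSK2334470, and 9.79, 9.63 and 9.39 under DMSO (−0.41 ± 0.13, SE; limma, adjusted p = 0.03). In HCC1954 it read 9.95, 9.91 and 10.44 under the combination, 10.43, 10.35 and 10.36 under BYL719, 10.11, 10 and 9.95 under GSK2334470, and 10.27, 10.34 and 10.6 under DMSO (−0.30, adjusted p = 0.14), and without combination replicate 3, its highest array, the difference was called (−0.47, adjusted p = 0.014). EIF5B, the GTPase of subunit joining, had JIMT1 levels of 9.56, 9.54 and 9.66 under the combination, 9.47, 9.82 and 9.72 under BYL719, 9.87, 9.79 and 9.85 under GSK2334470, and 9.88, 9.84 and 9.79 under DMSO (−0.25 ± 0.09, SE; limma, adjusted p = 0.042). For both genes the JIMT1 combination arrays lay below the DMSO arrays. EIF5 lost its call without DMSO replicate 1 or 2 or combination replicate 2 or 3, at −0.43 to −0.31 and adjusted p from 0.057 to 0.15. With no detection filter the EIF5 call was lost too (limma, adjusted p = 0.051). EIF5B lost its call without any 1 of the DMSO arrays or of combination replicates 1 and 2, at −0.27 to −0.23 and adjusted p from 0.063 to 0.12, and also with no detection filter (adjusted p = 0.073) and in a fit on JIMT1 alone (adjusted p = 0.081). In HCC1954 EIF5B read 9.7, 9.69 and 9.65 under the combination, 9.79, 9.82 and 9.77 under BYL719, 9.67, 9.9 and 9.78 under GSK2334470, and 9.72, 9.92 and 9.72 under DMSO (−0.11, adjusted p = 0.46).

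BYL719 alone called few factors. In HCC1954 none rose, against 1.97% of all genes, and 1 fell, against 1.89% of all genes. This was EIF1, which guards start codon selection, with levels of 12.49, 12.36 and 12.39 under the combination, 12.37, 12.19 and 12.21 under BYL719, 12.49, 12.61 and 12.52 under GSK2334470, and 12.6, 12.46 and 12.69 under DMSO. All BYL719 arrays lay below the DMSO arrays, by −0.33 ± 0.08 (SE; limma, adjusted p = 0.027), and the call was lost without DMSO replicate 1 or 3 or BYL719 replicate 2 or 3, at −0.32 to −0.27 and adjusted p from 0.088 to 0.11. In JIMT1 EIF1 read 11.7, 11.73 and 11.81 under the combination, 11.75, 11.57 and 11.6 under BYL719, 11.58, 11.53 and 11.72 under GSK2334470, and 11.67, 11.6 and 11.69 under DMSO (−0.02 upon BYL719, adjusted p = 0.95). The line difference of −0.31 in the BYL719 effect on EIF1 was not called (adjusted p = 0.24).

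In JIMT1 no factor rose upon BYL719, against 6.27% of all genes, and 3 fell, against 5.15% of all genes. Over all genes 759 rose and 624 fell, and under median scaling in place of quantile normalization 581 rose and 778 fell. EIF2B3, the gamma subunit of the exchange factor eIF2B, had levels of 10.18, 10.17 and 10.34 under the combination, 10.07, 10 and 10.01 under BYL719, 10.37, 10.19 and 10.2 under GSK2334470, and 10.45, 10.4 and 10.62 under DMSO. It fell by 0.46 ± 0.10 upon BYL719 (SE; limma, adjusted p = 0.0056) and read −0.26 upon the combination (adjusted p = 0.082), so the lowest arrays were those of BYL719 alone. EIF2B2, the beta subunit, had levels of 10.59, 10.37 and 10.39 under the combination, 10.41, 10.36 and 10.21 under BYL719, 10.59, 10.68 and 10.51 under GSK2334470, and 10.54, 10.6 and 10.6 under DMSO. It fell by 0.25 ± 0.08 upon BYL719 (SE; limma, adjusted p = 0.0496), and leaving out any 1 of the 6 arrays ended the call, at −0.29 to −0.19 and adjusted p from 0.053 to 0.2. EIF2S1 also fell, by 0.33 ± 0.11 (SE; limma, adjusted p = 0.048), although DMSO replicate 2 lay within the BYL719 arrays. Without any 1 of the BYL719 arrays or of DMSO replicates 1 and 3 that call was lost, at −0.37 to −0.23 and adjusted p from 0.054 to 0.25. The lowest value upon BYL719 was that of EIF4E, at −0.49, which was not called in the main fit. EIF4E was called with the replicate block (limma, adjusted p = 0.041) and without BYL719 replicate 1 (−0.64, limma, adjusted p = 0.041).

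No eIF2B subunit was called in HCC1954. There EIF2B3 read 9.48, 9.45 and 9.22 under the combination, 9.56, 9.56 and 9.19 under BYL719, 9.53, 9.4 and 9.59 under GSK2334470, and 9.58, 9.71 and 9.51 under DMSO (−0.16 upon BYL719, adjusted p = 0.47). EIF2B2 read 10.29, 10.07 and 10.13 under the combination, 10.27, 10.19 and 10.19 under BYL719, 10.42, 10.47 and 10.35 under GSK2334470, and 10.17, 10.28 and 10.19 under DMSO (0.01 upon BYL719, adjusted p = 0.98). The line difference in the BYL719 effect was 0.30 for EIF2B3 (adjusted p = 0.44) and 0.26 for EIF2B2 (adjusted p = 0.37).

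GSK2334470 alone called no factor by limma in either line, against 0.00826% of all genes in HCC1954 and 1.28% in JIMT1. At an unadjusted p under 0.05 there were 12 factors in HCC1954 and 3 in JIMT1, and the methods' t-test after Benjamini-Hochberg adjustment called 0 in both. In HCC1954 the lowest unadjusted p was that of EIF4B, at 0.30 ± 0.09 (SE; limma, adjusted p = 0.15).

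Adding 1 agent to the other changed few factors. The combination against BYL719 called none in HCC1954, against 2.73% of all genes, and none in JIMT1, against 1.18%, with 5 and 8 factors at an unadjusted p under 0.05 (limma). The combination against GSK2334470 in HCC1954 raised none, against 3.67% of all genes, and lowered 1, against 5.29%. This was EIF4ENIF1, the eIF4E transporter, with levels of 8.53, 8.51 and 8.34 under the combination, 8.49, 8.68 and 8.52 under BYL719, 8.82, 8.79 and 8.8 under GSK2334470, and 8.56, 8.64 and 8.71 under DMSO (−0.34 ± 0.09, SE; limma, adjusted p = 0.019). Its combination arrays lay below the GSK2334470 arrays, and against DMSO the change was −0.18 (adjusted p = 0.21). The call was lost without GSK2334470 replicate 1 or 3 or combination replicate 3, at −0.34 to −0.28 and adjusted p from 0.057 to 0.11. In JIMT1 the combination against GSK2334470 raised 1 factor, EIF3D (0.29, adjusted p = 0.042), against 6.68% of all genes, and lowered 1, EIF3A (−0.36, adjusted p = 0.041), against 4.48%. Each of these calls held in 1 of 6 fits with an array left out, with EIF3D at 0.24 to 0.32 (adjusted p from 0.057 to 0.17) and EIF3A at −0.40 to −0.25 (adjusted p from 0.055 to 0.21) where it was lost. BYL719 against GSK2334470 called none, against 2.09% of all genes in HCC1954 and 4.36% in JIMT1, with 10 and 4 factors at an unadjusted p under 0.05.

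Non-additivity, taken as the combination effect less the sum of the effects of each agent, was called for no factor in either line, against 0.033% of all genes in HCC1954 and 0.033% in JIMT1. At an unadjusted p under 0.05 there were 3 and 5 factors. EIF2B3 in JIMT1 was at 0.43, with a 95% confidence interval of 0.13 to 0.74 (limma, adjusted p = 0.41). For EIF2S1 it was 0.10 in HCC1954, with an interval of −0.21 to 0.41, and 0.02 in JIMT1, with an interval of −0.29 to 0.33. Between the lines, the effect of BYL719 differed for no factor, against 1.32% of all genes, and that of GSK2334470 for none, against 0.182%, with 2 and 3 factors at an unadjusted p under 0.05.

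Most factors differed between the lines before any drug. Under DMSO, 12 factors were higher in HCC1954 than in JIMT1, against 34.4% of all genes, and 20 were lower, against 35.4% of all genes. The 71.1% of factors called compare with 69.7% of all genes, and the median difference was −0.14 for the factors and −0.00 for all genes. EIF2S2 had the lowest difference, at −2.99 ± 0.10 (SE; limma, adjusted p = 9.9e-17), with HCC1954 arrays at 6.07, 6.21 and 6.2 and JIMT1 arrays at 8.97, 9.25 and 9.25. Its probe was dim in HCC1954, with raw intensities of 89 to 155 against 448 to 695 in JIMT1. The difference ran from −3.31 to −2.52 over the alternatives and the fits with an array left out. EIF6, which keeps the large subunit from joining early and lies on chromosome 20 as EIF2S2 does, read 11.73, 11.35 and 11.84 in HCC1954 and 12.96, 12.94 and 13.04 in JIMT1 (−1.34 ± 0.11, SE; limma, adjusted p = 4.3e-10). EIF3H, an eIF3 subunit encoded on chromosome 8, had the highest difference, with 13.84, 13.9 and 13.83 in HCC1954 and 12.28, 12.32 and 12.45 in JIMT1 (1.50 ± 0.08, SE; limma, adjusted p = 2.5e-13). EIF3E, on the same chromosome, differed by 0.21 (adjusted p = 0.021), and EIF4EBP1, also on chromosome 8, by −1.45 (adjusted p = 1.5e-09). The EIF3E call was lost without replicate 1 or 2 of either line, at 0.18 to 0.20 and adjusted p from 0.052 to 0.082, and median scaling turned its sign.

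**Figure D4:**
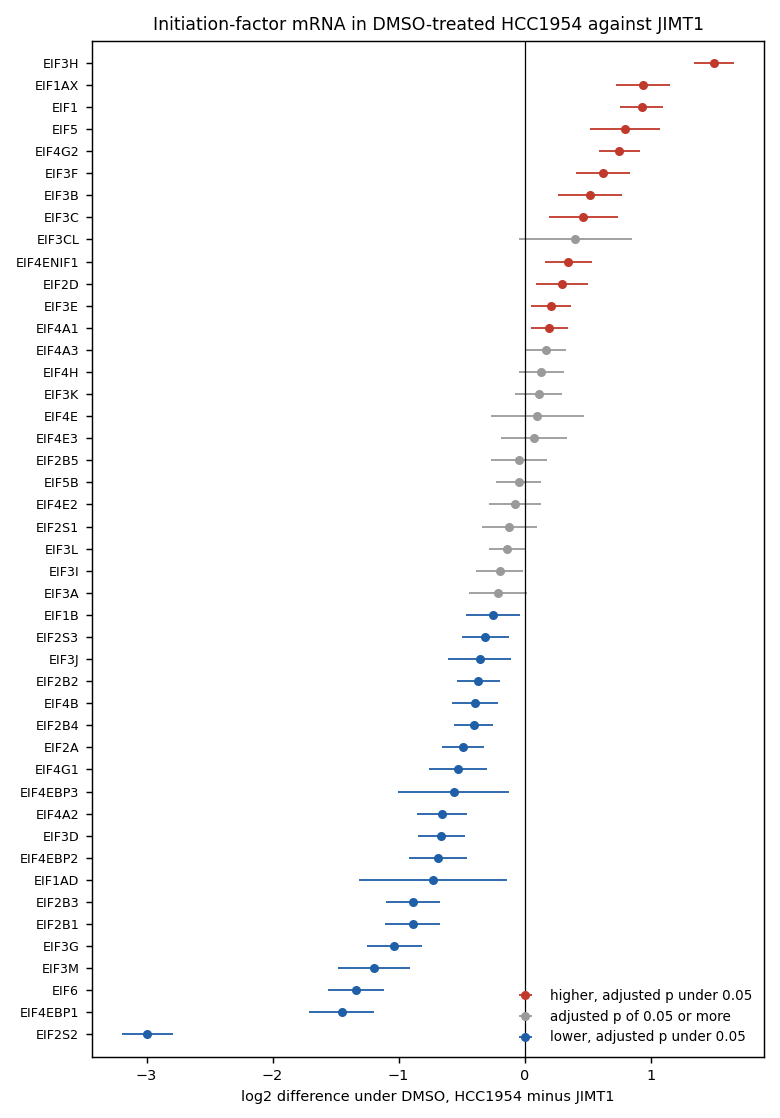
Log2 difference of the 45 factors under DMSO, HCC1954 minus JIMT1, in order of size, with 95% confidence intervals (3 arrays a line; red higher and blue lower in HCC1954, limma, adjusted p under 0.05). EIF3H stands at 1.50 at the top and EIF2S2 at −2.99 at the bottom, and all 3 4E-binding proteins are blue.

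By role, the counts are read against the 34.4% of all genes higher and 35.4% lower, and no difference between roles was tested. All 3 4E-binding proteins were lower in HCC1954, EIF4EBP2 by −0.69 ± 0.11 (SE; limma, adjusted p = 1.2e-05) and EIF4EBP3, whose arrays overlapped, by −0.56 ± 0.21 (SE; limma, adjusted p = 0.023). The EIF4EBP3 call was lost without JIMT1 DMSO replicate 1 (−0.36, adjusted p = 0.16), HCC1954 DMSO replicate 1 (−0.50, adjusted p = 0.074) or HCC1954 DMSO replicate 2 (−0.45, adjusted p = 0.097). Of the 5 eIF2B subunits, 4 were lower and 1 was not called, with EIF2B1 at −0.89 and EIF2B3 at −0.89. Of the 14 eIF3 genes, 5 were higher and 4 lower, the lower ones being EIF3M (−1.19), EIF3G (−1.03), EIF3D (−0.66) and EIF3J (−0.36). The EIF3J call was lost without HCC1954 DMSO replicate 3 (−0.25, adjusted p = 0.085) or JIMT1 DMSO replicate 2 (−0.29, adjusted p = 0.06). Among the genes grouped under start codon selection 3 of 5 were higher, with EIF1 at 0.93, EIF1AX at 0.94 and EIF5 at 0.80. EIF1AD and EIF1B, in the same group, were lower. The EIF1AD call held in 3 of 6 fits with an array left out and the EIF1B call in 2 of 6. Second probes of EIF1AX (−0.70), EIF5 (−0.23) and EIF4A1 (−0.16) gave the opposite sign to the probes used, and averaging the probes of each gene ended these 3 calls. Among the genes grouped with the cap complex, EIF4G2 (0.75) and EIF4A1 (0.19) were higher and EIF4A2 (−0.66), EIF4G1 (−0.53) and EIF4B (−0.39) lower. The EIF4A1 call was lost without HCC1954 DMSO replicate 2 (0.15, adjusted p = 0.088), JIMT1 DMSO replicate 1 (0.14, adjusted p = 0.11) or JIMT1 DMSO replicate 2 (0.17, adjusted p = 0.066), and its sign turned under median scaling.

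Genes that work next to the initiation factors were counted in 5 lists chosen with earlier results known. Beside each count stand the 6.96% of all genes that rose and 8.3% that fell in HCC1954, and the 12.5% that rose and 8.84% that fell in JIMT1. The lists hold 12 to 17 tested genes each, so a single gene moves a share by several percent, and nothing is called particular to a list. Among 17 tested genes of mRNA recruitment and activation, 2 rose and 3 fell upon the combination in HCC1954, and 4 rose in JIMT1, with list medians of −0.05 and 0.01. PAIP2, an inhibitor of the poly(A)-binding protein, rose by 0.63 in HCC1954 and by 0.72 in JIMT1, and PDCD4, an inhibitor of eIF4A, rose by 0.56 in JIMT1 (limma, adjusted p = 0.0089). YTHDF1, a protein that binds methylated adenosine in mRNA, fell by 0.54 in HCC1954. MKNK2, a kinase of eIF4E, fell by 0.32 in HCC1954, and its paralog MKNK1 rose by 0.32 in JIMT1. PABPC4, a poly(A)-binding protein, rose by 0.33 in JIMT1. DDX3X, an RNA helicase, fell by 0.32 in HCC1954.

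Among 14 genes of eIF2 phosphorylation, 2 rose in HCC1954 and 4 in JIMT1, and none fell. PPP1R15A, which directs the phosphatase to eIF2, rose by 0.42 in HCC1954 and by 0.53 in JIMT1. The kinase genes EIF2AK1 (0.29) and EIF2AK3 (0.44) and the transcription factor gene ATF4 (0.28) rose in JIMT1, and EIF2AK1 rose by 0.23 in HCC1954. Among 17 genes between mTORC1 and translation, 1 rose in HCC1954, and 2 rose and 1 fell in JIMT1. TSC1, an inhibitor of mTORC1, rose by 0.64 in HCC1954 and by 0.58 in JIMT1, DEPTOR, an inhibitor of mTOR, rose by 0.73 in JIMT1, and the kinase gene RPS6KA1 fell by 0.49 in JIMT1.

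Of 12 helpers of the pre-initiation complex and subunit joining, 2 fell in HCC1954 and 3 in JIMT1. RIOK1, a kinase of small-subunit maturation, fell by 0.83 in HCC1954 and by 0.38 in JIMT1, and BZW1, a mimic of eIF5, fell by 0.49 in JIMT1. EIF5A2, left out of the factors by the rule, fell by 0.75 in HCC1954 and by 1.32 in JIMT1. Of 16 elongation and termination genes, 2 fell in each line and none rose. EEF2KMT fell by 0.32 in HCC1954 and by 0.34 in JIMT1, DPH2, an enzyme of diphthamide synthesis, fell by 0.38 in HCC1954, and the release factor gene ETF1 fell by 0.39 in JIMT1. The medians of the eIF2 phosphorylation, mTORC1, helper and elongation lists upon the combination were 0.05, −0.12, −0.04 and −0.00 in HCC1954 and 0.14, −0.09, −0.14 and −0.08 in JIMT1, beside medians of −0.00 and 0.02 over all genes.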

How the data were processed

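Total RNA from HCC1954 and JIMT1 cells was extracted by the authors with an RNeasy kit, made into biotinylated cRNA and hybridised to Illumina HT-12 arrays. Per the file headers, the deposited scanner table holds mean bead intensity per probe on a linear scale without normalization, a detection p-value and a bead count, exported from GenomeStudio (its version is not given in the sources used here), and the authors also deposited processed intensities, whose method is not stated, and these served as an alternative only. Bead standard errors, in 24 columns, were left aside. Intensities were background-corrected and quantile-normalized with neqc of limma 3.58.1 in R 4.3.3 (offset 16). The filter kept 21256 of 47323 probes, those whose detection p-value was under 0.05 on every 1 of the 3 arrays in some group. The annotation table paired 30113 probes with 1 symbol and 8 with several, and it named none for 17202. The probe of highest mean level stood for a gene, which left 12109 genes. A limma fit with a mean for each of the 8 groups, on the 24 arrays together, gave 18 contrasts, with Benjamini-Hochberg adjustment over 12109 genes and a threshold of 0.05. The arrays are labelled as biological replicates, and their number limits the precision. The factors named are those called in a comparison, the 4E-binding proteins and the cap complex. Promoter sequences came from RefSeq on GRCh38.p14. Alternatives covered background, scaling, offset, filter, probe choice, the replicate number as a block, the methods' t-test, the arrays of 1 line and each array left out. The fitting steps were tested on simulated data. The members and lists were chosen with earlier results of these data known.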

Additional observations from a re-analysis of the deposited data

Results flagged for a closer look

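The change of EIF4A2 upon the combination differed between the lines by −0.47 on the log2 scale (HCC1954 minus JIMT1, SE 0.13; limma, adjusted p = 0.046), and the test of that difference passed the threshold. The combination minus DMSO was −0.35 in HCC1954 and 0.13 in JIMT1. The difference was lost in 10 of the 12 fits with an array left out, at −0.51 to −0.36 and adjusted p from 0.054 to 0.11, with the smallest value without HCC1954 DMSO replicate 2. It was also lost under median scaling (−0.34, adjusted p = 0.23) and with no detection filter (−0.47, adjusted p = 0.079). The cause was not tested.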

How the results depend on the processing

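All counts here are factors called by limma at an adjusted p under 0.05 unless the methods' t-test is named. Upon the combination in HCC1954 (3 higher, 4 lower), the methods' t-test called 0 higher and 2 lower, median scaling lost EIF4A2, no detection filter lost EIF2S3 and a fit on that line's arrays lost both. Upon the combination in JIMT1 (2 higher, 6 lower), median scaling and no detection filter each called 1 higher, and the methods' t-test 0 higher and 0 lower. Upon BYL719 in HCC1954 (1 lower), median scaling, the methods' t-test and a fit on that line's arrays each called 0, and offset 50 and the mean of a gene's probes each called 2. Upon BYL719 in JIMT1 (3 lower), no detection filter and a fit on that line's arrays each called 1, the mean of a gene's probes 5 and the methods' t-test 0. For the combination against GSK2334470 in HCC1954 (1 lower), offset 50 and the mean of a gene's probes each called 2 and the methods' t-test 0. For the same comparison in JIMT1 (1 higher, 1 lower), 0 were higher under median scaling, no detection filter, the methods' t-test, a fit on that line's arrays and the replicate block, and 0 were lower with no detection filter. BYL719 against GSK2334470 in JIMT1 (0 lower) gave 1 lower under median scaling. The line difference in the combination effect (1 lower) gave 0 under median scaling and with no detection filter. The cause was not tested.

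With 1 array left out, the combination in HCC1954 called 2 to 4 higher and 2 to 6 lower, and in JIMT1 0 to 2 higher and 2 to 5 lower. BYL719 called 0 to 3 lower in HCC1954 and 1 to 2 lower in JIMT1, and GSK2334470 in HCC1954 called 0 to 1 each way. The combination against BYL719 in HCC1954 gave 0 to 1 higher, and against GSK2334470 it gave 0 to 2 lower in HCC1954 and 0 to 1 each way in JIMT1. BYL719 against GSK2334470 in JIMT1 gave 0 to 1 lower, the line difference in the combination effect 0 to 1 each way, and HCC1954 against JIMT1 under DMSO 10 to 12 higher and 17 to 20 lower.

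Median scaling turned EIF3E to −0.058 (adjusted p = 0.69) and EIF4A1 to −0.069 (adjusted p = 0.54) in HCC1954 against JIMT1 under DMSO. The second EIF4A1 probe, tested by itself after the data had been seen, turned the JIMT1 combination value to −0.57 (adjusted p = 0.00038). With the replicate block, HCC1954 against JIMT1 under DMSO called 11 higher and 19 lower, losing EIF3E (adjusted p = 0.086) and EIF1B (adjusted p = 0.067). As that fit was coded, this comparison refers to replicate 1 of each line, so these losses do not show what blocking alone changes. The replicate block also ended the calls of EIF5B upon the combination (adjusted p = 0.054), EIF2B2 upon BYL719 (adjusted p = 0.065) and EIF3D in the combination against GSK2334470 (adjusted p = 0.064), all in JIMT1, and no other call of a factor. Deviations of arrays with the same replicate number correlated at −0.21 to 0.23 in HCC1954 and −0.12 to 0.09 in JIMT1. Arrays with different numbers gave −0.31 to 0.22 and −0.16 to 0.13. These ranges overlap, which cannot show whether arrays of the same number were handled together. The slide as a block was not run, since no slide is named in the headers.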
